A study of Homo sapiens with 12 samples.

Results

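Condensin I and condensin II were examined through the transcripts of their 8 subunits: SMC2, SMC4, NCAPD2, NCAPG, NCAPH, NCAPD3, NCAPG2 and NCAPH2. The members were taken by gene symbol from the 58051 genes of the table, and all 8 of 8 were among the 14214 genes tested. The cells were MV4-11, a human acute myeloid leukaemia line with a KMT2A fusion gene and an activated FLT3 receptor. They were exposed for 6 h to 200 nM BSJ-03-123, 200 nM YKL-06-102, 200 nM palbociclib or 0.1% DMSO, the solvent control, and each group had 3 polyadenylated-RNA libraries. Palbociclib inhibits the kinases CDK4 and CDK6, and by the submitters' account both BSJ-03-123 and YKL-06-102 are phthalimide conjugates specific for CDK6, used in a study on selective loss of that kinase. All groups are the same line, and nothing in the labels says whether the 3 libraries of a group came from separate cultures, so the p-values measure only the spread between these libraries.

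Condensins are ring-shaped ATPase complexes that extrude loops of DNA and compact chromosomes for mitosis. Both complexes share the ATPase pair SMC2 and SMC4. Condensin I adds the kleisin NCAPH, which closes the ring, and the HEAT-repeat subunits NCAPD2 and NCAPG, while condensin II adds the counterparts NCAPH2, NCAPD3 and NCAPG2. Condensin II is in the nucleus throughout the cell cycle and starts chromosome compaction in prophase, and condensin I reaches the chromosomes after the nuclear envelope breaks down. Many genes of DNA replication and mitosis are transcribed periodically under the RB and E2F proteins and the DREAM and MuvB complexes, which bind E2F sites and a late element named CHR, often near CCAAT boxes. CDK4 and CDK6 phosphorylate RB.

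To show the sequence in front of these genes, the 250 bases before each start in the RefSeq table (GRCh38.p14) were searched on both strands. The letters searched were TTTCCCGC or TTTGGCGC or TTTCGCGC or TTTGCCGC for E2F, then TTTGAA or TTCGAA or TTTAAA for CHR, and CCAAT. The table held 10 windows for 7 members, and NCAPH2 was not in it. An E2F match was found in 1 of the 10 windows, against 2.79% of the 35116 windows of all genes. A CHR match was found in 3 windows, against 22.8% of all windows, and a CCAAT match in 3 windows, against 32% of all. The 4 windows below hold every E2F and CHR match among the members, with the matched letters in capitals on the strand of the gene, and no matches overlapped. A match is a description of these letters and not evidence of binding.
NCAPG, chr4:17810729-17810978, plus strand: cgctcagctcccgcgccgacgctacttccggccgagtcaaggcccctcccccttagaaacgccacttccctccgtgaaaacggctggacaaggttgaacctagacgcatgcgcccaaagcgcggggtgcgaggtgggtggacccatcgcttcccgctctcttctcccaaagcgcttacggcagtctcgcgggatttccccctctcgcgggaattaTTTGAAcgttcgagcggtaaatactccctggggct
NCAPD2, chr12:6493852-6494101, plus strand: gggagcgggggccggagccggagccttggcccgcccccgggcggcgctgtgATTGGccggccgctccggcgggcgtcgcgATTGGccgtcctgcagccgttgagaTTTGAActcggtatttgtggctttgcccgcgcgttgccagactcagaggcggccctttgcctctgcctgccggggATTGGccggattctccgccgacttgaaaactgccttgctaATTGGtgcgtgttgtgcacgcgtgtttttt
NCAPD3, chr11:134223968-134224217, minus strand: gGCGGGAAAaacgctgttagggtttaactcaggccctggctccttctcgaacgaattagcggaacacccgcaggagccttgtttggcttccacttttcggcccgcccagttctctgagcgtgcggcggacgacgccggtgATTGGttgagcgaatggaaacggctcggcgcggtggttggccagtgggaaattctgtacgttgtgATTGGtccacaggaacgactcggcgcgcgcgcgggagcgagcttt
SMC4, chr3:160399400-160399649, plus strand: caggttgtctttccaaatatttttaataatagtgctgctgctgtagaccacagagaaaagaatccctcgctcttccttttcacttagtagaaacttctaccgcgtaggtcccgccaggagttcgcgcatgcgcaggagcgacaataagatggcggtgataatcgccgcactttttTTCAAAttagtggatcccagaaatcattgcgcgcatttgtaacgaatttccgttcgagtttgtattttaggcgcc
In the NCAPG window the capitals mark a CHR match that begins 35 bases before the start. In the NCAPD2 window they mark a CHR match at 145 bases and 4 CCAAT boxes, all read on the opposite strand. The NCAPD3 window belongs to the inner of its starts. It holds the E2F match at its outer end, 249 bases before the start, and CCAAT boxes at 110 and 45 bases. These NCAPD3 matches were all read on the opposite strand. The SMC4 window holds a CHR match on the opposite strand, 75 bases before the start. A CCAAT box 112 bases before the NCAPH start was the remaining match.

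Library totals ran from 18764307 to 25539858 reads counted on genes. The members had between 1161 and 8805 reads in each library, well above the minimum count of 10 used in the filter. Values are CPM, that is counts scaled by the library total and a TMM factor. Replicates of the compound groups and DMSO replicates 1 and 3 differed by 1.72 to 2.95 in chi-square per degree of freedom, where 1 is counting noise alone, whereas DMSO replicate 2 differed from its group mates by 5.89 and 8.93. That library held the lowest DMSO value of SMC2, SMC4, NCAPG and NCAPG2. The cells carried the markers of their lineage. Of 8 myeloid markers, CD14 was at most 0.469 CPM and the other 7 were at 6.49 CPM or more, all 4 KMT2A fusion targets were present, 5 T and B cell markers summed to at most 1.75 CPM, and of the erythroid and epithelial markers HBB and EPCAM were at 0 and HBA1 and CDH1 had at most 1 read in a library. The exception was KRT18, an epithelial keratin gene, at 9.98 to 13.1 CPM, above the level of MPO, with log2 fold changes of 0.23 (adjusted p = 0.0324), 0.14 (0.195) and 0.27 (0.00963) for BSJ-03-123, YKL-06-102 and palbociclib. The sum of the erythroid and epithelial list was 11.5 to 13.2 CPM with BSJ-03-123, 11.0 to 11.6 CPM with YKL-06-102, 11.7 to 13.0 CPM with palbociclib and 9.98 to 11.0 CPM in DMSO, and its part in the results was not tested. The sum of the myeloid markers was 2098 to 2118 CPM with BSJ-03-123, 2434 to 2461 CPM with YKL-06-102, 2130 to 2162 CPM with palbociclib and 1963 to 1998 CPM in DMSO.

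Every condensin subunit was lower with every compound than in DMSO. Genes were called in edgeR's quasi-likelihood test where the p adjusted by Benjamini-Hochberg over the 14214 tested genes was under 0.05. By that rule 8 of 8 members fell with BSJ-03-123, where 15.7% of all tested genes were called lower, 8 of 8 fell with YKL-06-102 (21.3% of all genes) and 8 of 8 fell with palbociclib (17.6%). For all 8, the 9 compound libraries lay below the 3 DMSO libraries. The share of all tested genes with the 3 libraries of a compound below the 3 DMSO libraries was 19.4% for BSJ-03-123, 25.2% for YKL-06-102 and 21.1% for palbociclib. The share with all 9 compound libraries below DMSO was not computed. For BSJ-03-123 the median log2 fold change of the members was -0.78, beside 0.0075 over all tested genes. It was -0.64 (all genes -0.017) for YKL-06-102 and -0.89 (all genes 0.014) for palbociclib. The 3 comparisons share the DMSO libraries and are not independent of each other. In bulk RNA, fewer cells at the cycle stage that holds these transcripts and less transcript per cell cannot be told apart.

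**Figure D1:**
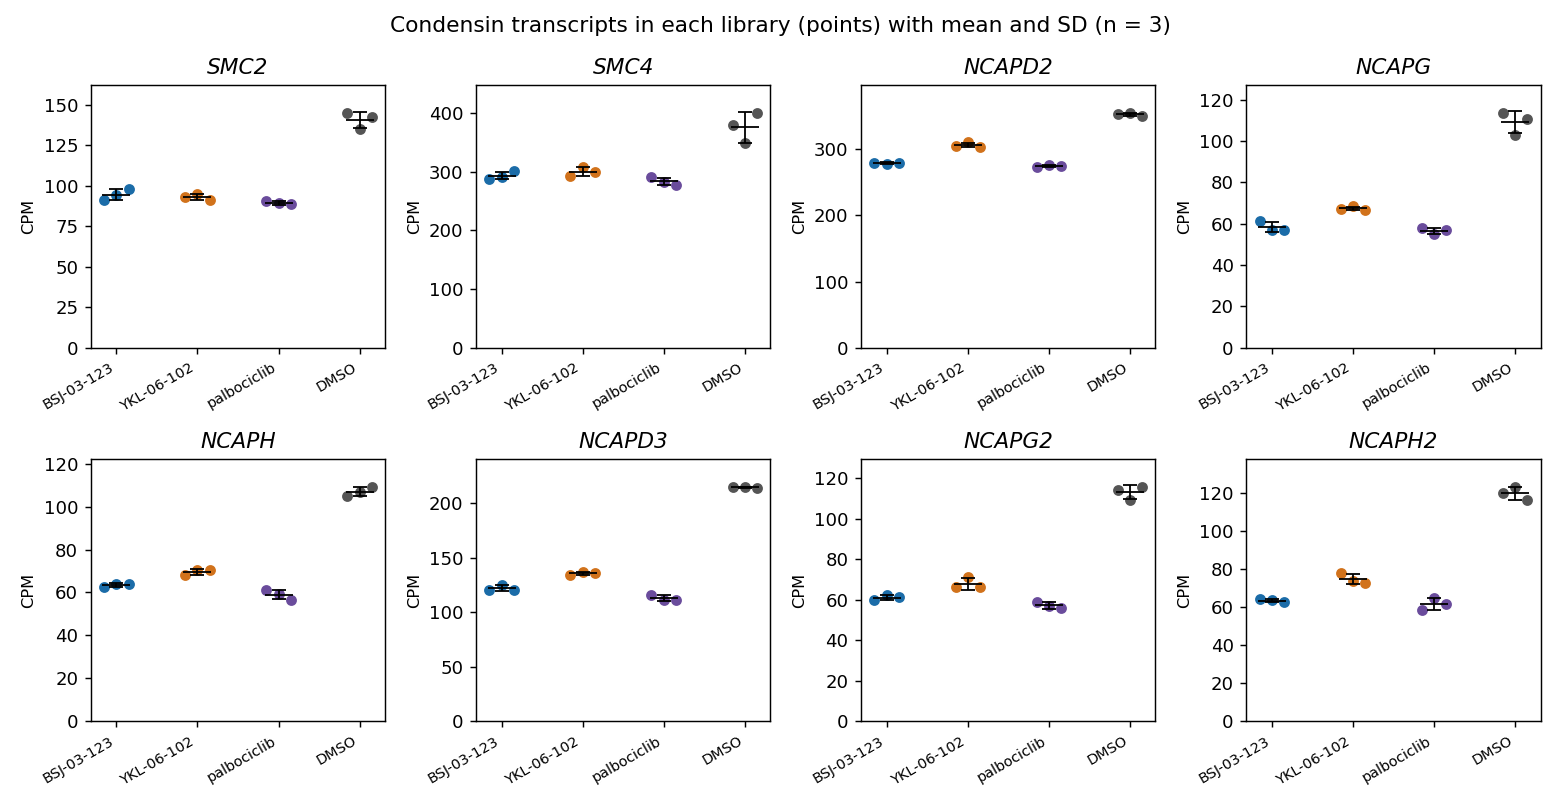
CPM (vertical axes, from 0) of the 8 condensin transcripts in the 12 libraries, by group. Coloured points are libraries, and black bars are the mean and SD of 3 libraries. In each panel the 9 compound libraries sit below the 3 DMSO libraries, and the gap is narrowest, relative to the level, for SMC4 and NCAPD2 with YKL-06-102.

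Among the shared ATPases, SMC2 (ENSG00000136824, chr9:104094260-104141417, plus strand) had 91.2, 94.2 and 98.3 CPM with BSJ-03-123, 93.0, 95.1 and 91.3 CPM with YKL-06-102, 90.9, 89.3 and 88.6 CPM with palbociclib, and 145, 135 and 143 CPM in DMSO. The 3 compound groups were close to each other and all well below DMSO. Against DMSO, its log2 fold change was -0.57 ± 0.037 (SE, 32.8% lower) for BSJ-03-123, -0.60 ± 0.036 (33.9% lower) for YKL-06-102 and -0.65 ± 0.037 (36.4% lower) for palbociclib. SMC4 (ENSG00000113810, chr3:160399274-160434962, plus strand) had 288, 291 and 301 CPM with BSJ-03-123, 293, 309 and 299 CPM with YKL-06-102, 290.4, 283 and 278 CPM with palbociclib, and 379, 348 and 400.1 CPM in DMSO. The lowest DMSO value, that of replicate 2, was still above the highest compound value. SMC4 had log2 fold changes of -0.36 ± 0.038 for BSJ-03-123, -0.32 ± 0.038 for YKL-06-102 and -0.40 ± 0.038 for palbociclib. Without DMSO replicate 2 these changes were -0.41, -0.35 and -0.46. The exons of SMC4 share 18.5% of their bases with TRIM59 on the other strand, and the strand setting of the counting is not given. TRIM59 itself was lower with each compound (-0.26, -0.28 and -0.26 on the log2 scale for BSJ-03-123, YKL-06-102 and palbociclib) and had 6647 reads over all libraries against 82523 for SMC4.

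Of the condensin I subunits, the HEAT-repeat protein NCAPD2 changed least and NCAPG most. NCAPD2 (ENSG00000010292, chr12:6493356-6531955, plus strand) had 280.1, 277 and 279.8 CPM with BSJ-03-123, 305, 311 and 304 CPM with YKL-06-102, 273, 276 and 275 CPM with palbociclib, and 354, 355 and 349.9 CPM in DMSO. Each group was tight, and the YKL-06-102 libraries lay between the other compound libraries and DMSO. The log2 fold change was -0.34 ± 0.028 with BSJ-03-123, -0.20 ± 0.028 with YKL-06-102 (13.1% lower, adjusted p = 8.09e-07) and -0.36 ± 0.028 with palbociclib. Its exons share 7.49% of their bases with MRPL51 on the other strand, which was not called with any compound. NCAPG (ENSG00000109805, chr4:17810902-17844862, plus strand), the other HEAT-repeat subunit, had 61.1, 56.9 and 56.7 CPM with BSJ-03-123, 67.3, 68.3 and 66.8 CPM with YKL-06-102, 57.9, 54.9 and 57.0 CPM with palbociclib, and 113, 103 and 110.4 CPM in DMSO. All compound libraries were far below DMSO, with YKL-06-102 highest among them. NCAPG had log2 fold changes of -0.90 ± 0.042 for BSJ-03-123, -0.69 ± 0.041 for YKL-06-102 and -0.94 ± 0.042 for palbociclib. It shares 33.1% of its exonic bases with LCORL on the other strand, a gene with 3599 reads over all libraries against 19100 for NCAPG. LCORL was at -0.31 with YKL-06-102 (adjusted p = 0.00167) and at -0.066 and -0.055 with BSJ-03-123 and palbociclib (adjusted p = 0.570 and 0.620).

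The condensin I kleisin NCAPH (ENSG00000121152, chr2:96335787-96373845, plus strand) had 62.3, 63.9 and 63.8 CPM with BSJ-03-123, 68.0, 70.6 and 70.2 CPM with YKL-06-102, 61.1, 59.3 and 56.7 CPM with palbociclib, and 105, 107 and 109 CPM in DMSO. The 4 groups did not overlap. Its log2 fold change was -0.76 ± 0.038 for BSJ-03-123, -0.62 ± 0.037 for YKL-06-102 and -0.86 ± 0.038 for palbociclib.

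The 3 condensin II subunits fell to similar degrees. NCAPD3 (ENSG00000151503, chr11:134150119-134225454, minus strand), the HEAT-repeat subunit that is the counterpart of NCAPD2, had 120.4, 125 and 120.2 CPM with BSJ-03-123, 134, 137 and 136 CPM with YKL-06-102, 116, 111 and 112 CPM with palbociclib, and 215, 215 and 213 CPM in DMSO. The DMSO values were nearly equal and the 4 groups did not overlap. With palbociclib it was 47.3% lower (log2 fold change -0.92 ± 0.032, adjusted p = 1.77e-19), with BSJ-03-123 the change was -0.81 ± 0.032 and with YKL-06-102 -0.66 ± 0.031. NCAPG2 (ENSG00000146918, chr7:158631311-158704829, minus strand), the counterpart of NCAPG, had 59.7, 62.4 and 61.2 CPM with BSJ-03-123, 66.2, 71.4 and 66.2 CPM with YKL-06-102, 59.2, 56.8 and 55.9 CPM with palbociclib, and 114, 109 and 116 CPM in DMSO. Its log2 fold change was -0.89 ± 0.041 for BSJ-03-123, -0.73 ± 0.039 for YKL-06-102 and -0.98 ± 0.040 for palbociclib, the lowest value of any member in the palbociclib and YKL-06-102 comparisons. The condensin II kleisin NCAPH2 (ENSG00000025770, chr22:50508216-50523472, plus strand) had 64.1, 63.5 and 62.4 CPM with BSJ-03-123, 78.0, 73.5 and 72.7 CPM with YKL-06-102, 58.6, 64.6 and 61.8 CPM with palbociclib, and 119.7, 123 and 116 CPM in DMSO. The BSJ-03-123 and palbociclib libraries overlapped, and the YKL-06-102 libraries lay above both. NCAPH2 had log2 fold changes of -0.92 ± 0.041 for BSJ-03-123, -0.68 ± 0.040 for YKL-06-102 and -0.96 ± 0.041 for palbociclib.

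**Figure D2:**
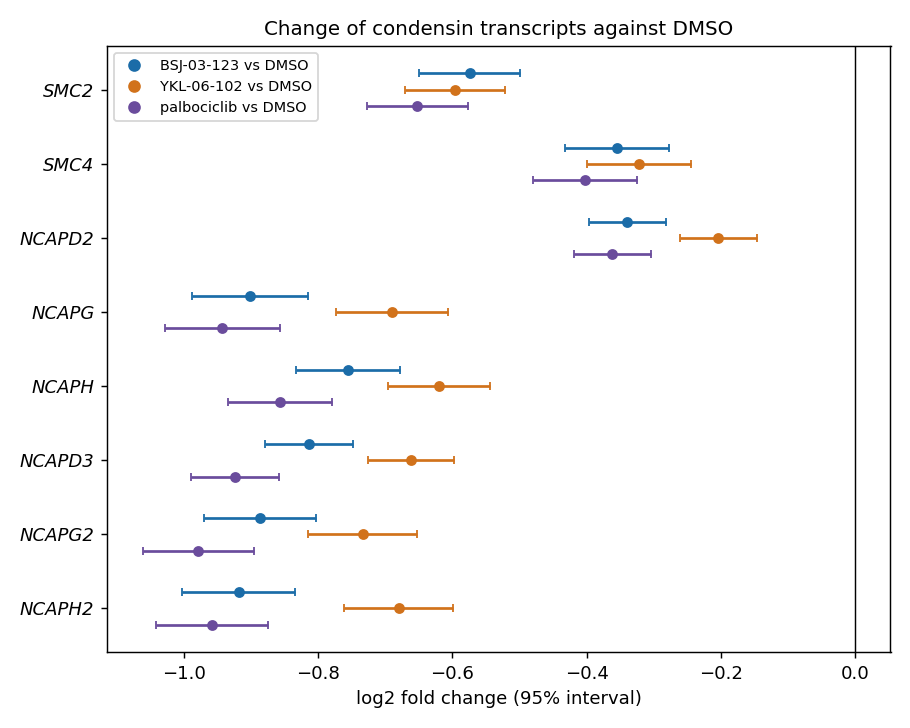
Log2 fold change against DMSO (horizontal axis, 0 marked by the line) of each condensin gene for BSJ-03-123, YKL-06-102 and palbociclib, with 95% intervals derived from the edgeR test. All intervals lie below 0; NCAPD2 and SMC4 lie nearest to it, from -0.20 to -0.40.

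Per kilobase of exon, condensin transcripts differed several-fold in level. In DMSO the order of CPM per kilobase was NCAPD2 (54.4 ± 0.420, SD, n = 3), SMC4 (44.4 ± 3.09), NCAPH2 (37.9 ± 1.10), NCAPH (32.6 ± 0.627), NCAPD3 (23.5 ± 0.0832), NCAPG (22.2 ± 1.08), SMC2 (21.8 ± 0.775) and NCAPG2 (16.2 ± 0.488). The neighbours NCAPG and SMC2 overlapped in their DMSO libraries, and the others did not. With BSJ-03-123 the first 4 kept that order, at 43.0 ± 0.253, 34.7 ± 0.784, 20.1 ± 0.274 and 19.3 ± 0.269 CPM per kilobase, and SMC2 came next at 14.6 ± 0.551. Thus SMC2 stood 5th with BSJ-03-123 and palbociclib, 6th with YKL-06-102, where it overlapped NCAPD3, and 7th in DMSO. The order depends on the length used. With the longest coding transcript in place of all exons, the mean of SMC4 stood above that of NCAPD2 in DMSO (68.7 ± 4.77 and 63.6 ± 0.491 CPM per kilobase), with overlapping libraries, and below it with YKL-06-102 (54.9 ± 1.43 and 55.3 ± 0.649), also with overlap. SMC2 was then 6th by mean in all 4 groups, and in DMSO its libraries overlapped those of NCAPG, which was 7th.

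Ratios were taken between the 3 pairs of subunits that take the same place in the 2 complexes, and no test was made of them. Of these 3 pairs, only NCAPD2 to NCAPD3 was clear of DMSO with every compound. The ratio of SMC4 to SMC2, given below, was also clear of DMSO with every compound. The ratio of NCAPD2 to NCAPD3 in CPM per kilobase was 3.11 to 3.27 with BSJ-03-123, 3.14 to 3.21 with YKL-06-102, 3.31 to 3.48 with palbociclib, and 2.30 to 2.32 in DMSO. All compound libraries were above all DMSO libraries for this HEAT-repeat pair. For NCAPG to NCAPG2 the ratio was 1.30 to 1.45 with BSJ-03-123, 1.36 to 1.44 with YKL-06-102, 1.37 to 1.45 with palbociclib, and 1.34 to 1.41 in DMSO, so that every compound group overlapped DMSO. The kleisin ratio, NCAPH to NCAPH2, was 0.937 to 0.986 with BSJ-03-123, 0.841 to 0.932 with YKL-06-102, 0.884 to 1.01 with palbociclib, and 0.836 to 0.907 in DMSO. The BSJ-03-123 libraries alone were clear of DMSO here. SMC4 to SMC2, the ATPase pair that both complexes share, stood at 2.34 to 2.42 with BSJ-03-123, 2.41 to 2.51 with YKL-06-102, 2.40 to 2.44 with palbociclib, and 1.97 to 2.15 in DMSO. The geometric mean of the 3 condensin I subunits over that of the 3 condensin II subunits, in CPM per kilobase, was 1.58 to 1.65 with BSJ-03-123, 1.57 to 1.61 with YKL-06-102, 1.62 to 1.67 with palbociclib, and 1.37 to 1.41 in DMSO. With coding transcript lengths the same ratio was 1.14 to 1.19, 1.14 to 1.16 and 1.17 to 1.20 for BSJ-03-123, YKL-06-102 and palbociclib, and 0.992 to 1.02 in DMSO. This combined ratio includes the NCAPD2 to NCAPD3 pair, so it does not show a shift of every counterpart pair.

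**Figure D3:**
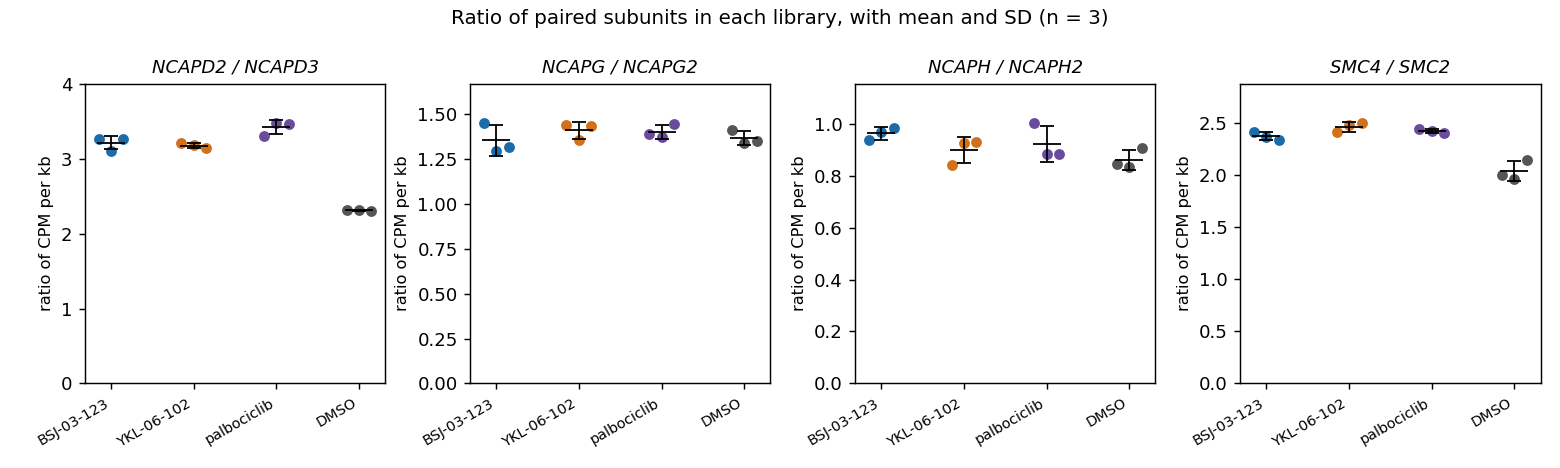
Ratio of CPM per kilobase (vertical axes, from 0) between paired subunits in each library, with mean and SD of 3 libraries as black bars. The NCAPD2 to NCAPD3 ratio is at 3.11 or more in every compound library and at most 2.32 in DMSO. The SMC4 to SMC2 ratio is at 2.34 or more in every compound library and at most 2.15 in DMSO. The NCAPG to NCAPG2 ratio overlaps between all groups.

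BSJ-03-123 and palbociclib gave similar condensin levels, and no member was called between them. Of all tested genes, 0.155% (22 genes) were called higher with BSJ-03-123 and 0% lower. With any 1 of the 6 libraries left out, 3 to 14 genes were called in either direction. Without BSJ-03-123 replicate 1, for example, 2 were lower and 12 higher. The count of called members was 0 in edgeR, in DESeq2 and in limma-voom. In edgeR 3 members (NCAPH, NCAPD3 and NCAPG2) had an unadjusted p under 0.05. The share of all tested genes under that unadjusted cut was not computed, so this count has no background beside it. The log2 difference, BSJ-03-123 over palbociclib, ran from 0.022 (NCAPD2, 95% interval -0.035 to 0.080) to 0.11 (NCAPD3, 0.043 to 0.18, adjusted p = 0.230), with a median of 0.062. The 3 BSJ-03-123 libraries lay above the 3 palbociclib libraries for 5 of 8 members, against 8.01% of all tested genes. NCAPH2 differed by 0.040 (-0.049 to 0.13), NCAPG by 0.041 (-0.050 to 0.13) and SMC4 by 0.047 (-0.031 to 0.13). These intervals bound the differences and do not show that the compounds act alike.

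YKL-06-102 left more condensin transcript than palbociclib for 6 of 8 members, while 12.7% of all tested genes were called higher in that comparison. The log2 difference, YKL-06-102 over palbociclib, was 0.28 ± 0.042 for NCAPH2 (adjusted p = 7.43e-06), 0.26 ± 0.032 for NCAPD3 (3.01e-07), 0.25 ± 0.043 for NCAPG (4.45e-05), 0.24 ± 0.042 for NCAPG2 (4.68e-05), 0.24 ± 0.039 for NCAPH (2.72e-05) and 0.16 ± 0.028 for NCAPD2 (6.69e-05). These 6 are the subunits that belong to condensin I or to condensin II alone. The shared ATPases did not pass: SMC2 differed by 0.056 (95% interval -0.021 to 0.13, adjusted p = 0.314) and SMC4 by 0.081 (0.0029 to 0.16, adjusted p = 0.128). SMC4 passed at an adjusted p of 0.049 without YKL-06-102 replicate 1, with a difference of 0.12, and at 0.007 in a fit of these 2 groups alone. For all 8 members the 3 YKL-06-102 libraries were above the 3 palbociclib libraries, against 20.1% of all tested genes. The myeloid marker sum was also higher in the YKL-06-102 libraries, as given above, and its part in these differences was not tested. Of the gene lists described below, 6 of 6 MCM helicase genes were called higher (median 0.74), beside a median of 0.24 for the condensin members. Among condensin partners 10 of 18 were called higher and 2 lower. For cohesin 5 of 14 were called higher and 2 lower, and for SMC5/6 1 of 8 higher and 0 lower.

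Between the conjugates, 6 of 8 members were lower with BSJ-03-123 than with YKL-06-102, against 10.4% of all tested genes called lower. The log2 difference, BSJ-03-123 over YKL-06-102, was -0.24 ± 0.042 for NCAPH2 (adjusted p = 9.71e-05), -0.21 ± 0.043 for NCAPG (0.000564), -0.15 ± 0.032 for NCAPD3 (0.000833), -0.15 ± 0.042 for NCAPG2 (0.00893), -0.14 ± 0.028 for NCAPD2 (0.000565) and -0.14 ± 0.039 for NCAPH (0.0126). The libraries of the 2 conjugates did not overlap for these 6, against 17.6% of all tested genes with BSJ-03-123 wholly below. SMC2 differed by 0.022 (-0.055 to 0.099, adjusted p = 0.762) and SMC4 by -0.033 (-0.11 to 0.045, adjusted p = 0.622), and both overlapped. By group mean, 7 of 8 members stood lowest with palbociclib, then BSJ-03-123, then YKL-06-102, then DMSO, and SMC2 was the exception, with YKL-06-102 below BSJ-03-123. That order includes neighbours, BSJ-03-123 and palbociclib, whose difference was called for no member. The share of all tested genes that follow it was not computed.

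**Figure D4:**
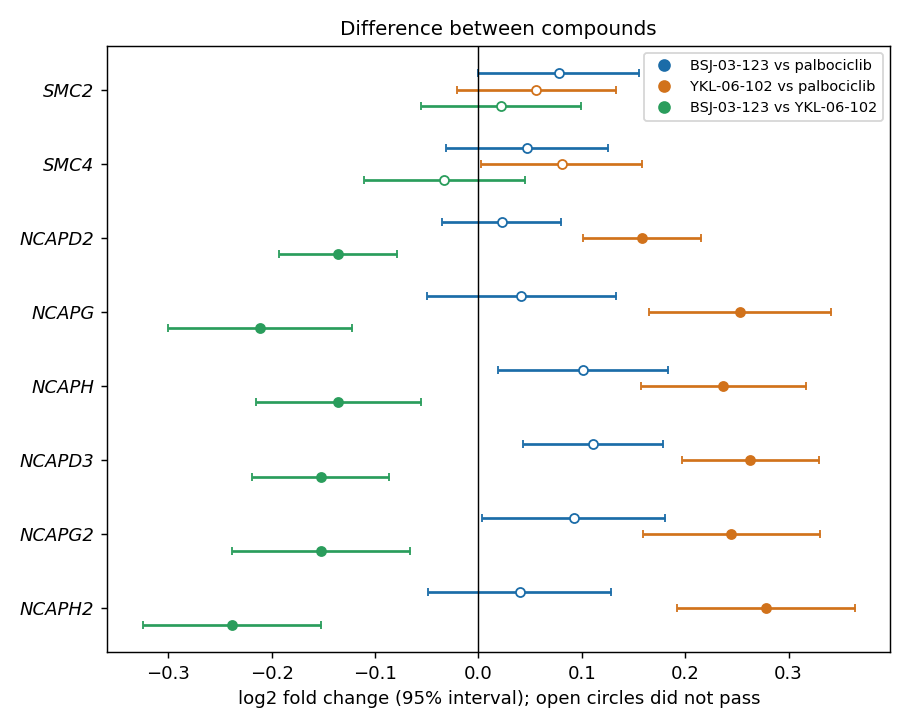
Log2 difference between compounds (horizontal axis) with 95% intervals derived from the edgeR test for each condensin gene. Filled circles passed at an adjusted p under 0.05 and open circles did not. The YKL-06-102 over palbociclib values lie between 0.16 and 0.28 for the 6 non-SMC subunits, and no BSJ-03-123 over palbociclib circle is filled.

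The gene lists of other complexes of the SMC family, which also hold loaders, modifiers or recruiting factors, changed less evenly. Of 14 cohesin genes, which hold sister chromatids together, 8 fell and 2 rose with BSJ-03-123, 9 fell and 1 rose with YKL-06-102, and 8 fell and 2 rose with palbociclib, with medians of -0.18, -0.23 and -0.23 on the log2 scale. Over all tested genes 12.4%, 15.6% and 15.6% were called higher in these comparisons. The lowest were ESCO2, the acetyltransferase that locks cohesin on replicated DNA (-1.15, -0.96 and -1.30 for BSJ-03-123, YKL-06-102 and palbociclib), and CDCA5, which encodes sororin, the protector of cohesion (-0.87, -0.70 and -0.999). The ring subunits SMC3, SMC1A and RAD21 were called lower with every compound. In the same order of compounds, SMC3 stood at -0.66, -0.48 and -0.71. SMC1A stood at -0.49, -0.36 and -0.55, and RAD21 at -0.38, -0.28 and -0.37. At the other end were NIPBL and MAU2, the cohesin loader (0.12 and 0.093 with BSJ-03-123), MAU2 and the SMC3 deacetylase gene HDAC8 (0.10 and 0.086 with YKL-06-102), and the acetyltransferase ESCO1 and MAU2 (0.16 and 0.12 with palbociclib). HDAC8 was not called, and the others were called in the fit of all 12 libraries but not in every fit with 1 library left out. The adjusted p of NIPBL with BSJ-03-123 was 0.0136, but 0.0872 without DMSO replicate 1 and 0.108 without BSJ-03-123 replicate 2. For MAU2 with BSJ-03-123 it was 0.0427, but 0.104 without DMSO replicate 1, 0.113 without DMSO replicate 3, 0.0589 without BSJ-03-123 replicate 1 and 0.286 without BSJ-03-123 replicate 3. MAU2 was at 0.0549 without YKL-06-102 replicate 3 in that comparison and at 0.0579 without palbociclib replicate 1 in the palbociclib comparison. WAPL, the cohesin release factor, was among the genes called lower with YKL-06-102 (-0.11, adjusted p = 0.0263), a call kept in 5 of 13 alternatives and lost without DMSO replicate 1 (0.0884), DMSO replicate 3 (0.131), YKL-06-102 replicate 2 (0.167) or YKL-06-102 replicate 3 (0.278). ESCO1 with palbociclib was at 0.130 without DMSO replicate 2, 0.0930 without palbociclib replicate 1 and 0.0585 without palbociclib replicate 3.

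Of 8 genes of the SMC5/6 complex, which acts in DNA repair and replication, 5 fell and 0 rose with BSJ-03-123, 5 fell and 0 rose with YKL-06-102, and 6 fell and 1 rose with palbociclib, with medians of -0.32, -0.28 and -0.30. SLF1 and SLF2, which bring the complex to damaged DNA, were the lowest: SLF1 stood at -0.79, -0.65 and -0.89 and SLF2 at -0.39, -0.48 and -0.48 with BSJ-03-123, YKL-06-102 and palbociclib. NSMCE1, a RING-domain subunit, was the highest, at 0.12, 0.095 and 0.13 with BSJ-03-123, YKL-06-102 and palbociclib, and NSMCE3 came next, at -0.0071, -0.064 and 0.0071, without a call. NSMCE1 was called with palbociclib (adjusted p = 0.0334), and this call was lost without DMSO replicate 3 (0.187), palbociclib replicate 1 (0.124) or palbociclib replicate 3 (0.0938). Among the genes called lower with palbociclib, NSMCE2, a SUMO ligase subunit, was at -0.20 (adjusted p = 0.0209) and lost its call without DMSO replicate 1 (0.0991) or palbociclib replicate 2 (0.0834).

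Of 18 genes whose products work with or act on condensin in mitosis, 14 fell and 1 rose with each compound, with medians of -0.37, -0.30 and -0.40 for BSJ-03-123, YKL-06-102 and palbociclib. CDK1, the mitotic kinase that phosphorylates condensin, fell by 0.69, 0.61 and 0.78 on the log2 scale. AURKB, the kinase of the chromosomal passenger complex, fell by 0.63, 0.31 and 0.73, and MKI67, a protein of the chromosome surface, fell by 0.46, 0.44 and 0.63. TOP2A, the topoisomerase that untangles mitotic chromosomes, fell by 0.38, 0.33 and 0.43. KIF4A, a chromokinesin that binds condensin, fell by 0.42, 0.31 and 0.45. The 1 gene that rose was AKAP8L, related to the condensin-recruiting anchor protein AKAP8, at 0.11, 0.14 and 0.15. Its adjusted p with BSJ-03-123 was 0.0145, but 0.0547 without DMSO replicate 1 and 0.139 without BSJ-03-123 replicate 3. The next highest were AKAP8 with BSJ-03-123 (0.040) and YKL-06-102 (-0.029), and TOP2B with palbociclib (0.056), all without a call. Of the 14 genes called lower with YKL-06-102, 3 lost the call in some fits with 1 library left out. The mitotic kinase AURKA (-0.11, adjusted p = 0.0238) kept it in 4 of 13 alternatives and lost it without DMSO replicate 2 (0.168) or 3 (0.0551) or YKL-06-102 replicate 1 (0.137), 2 (0.126) or 3 (0.112). MCPH1, an inhibitor of condensin II (-0.15, 0.00897), kept it in 8 of 13 and lost it without DMSO replicate 3 (0.0528) or YKL-06-102 replicate 1 (0.0625) or 3 (0.118). TOP2B (-0.13, 0.00243) lost it without YKL-06-102 replicate 3 (0.0719). Over the alternatives 12 to 16 genes of the list were called in that comparison, in either direction. For comparison of size, the 6 genes of the MCM2 to MCM7 replicative helicase all fell with each compound, with medians of -1.79, -1.20 and -1.97. The condensin medians of -0.78, -0.64 and -0.89 lay between those of the cohesin and SMC5/6 lists and that of the helicase. These lists are unlike in make-up. The condensin and helicase genes are subunits only, whereas the cohesin and SMC5/6 lists also hold loaders, modifiers or recruiting factors.

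**Figure D5:**
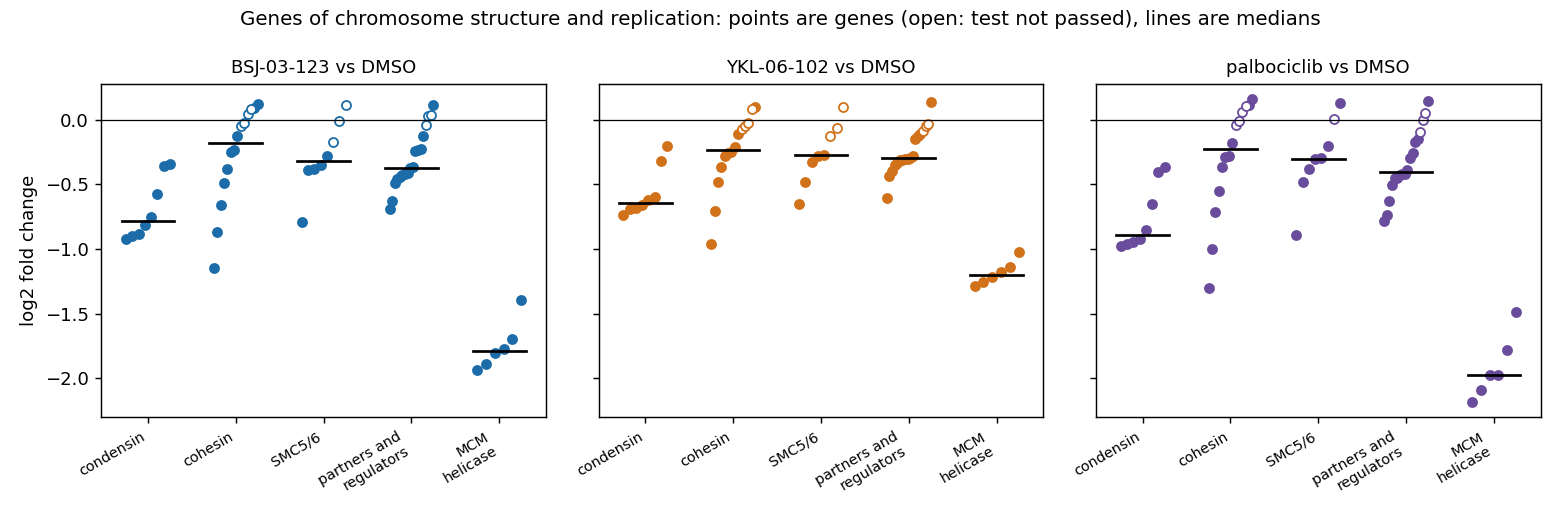
Log2 fold change against DMSO (vertical axis) of single genes in 5 groups, 1 panel per compound; filled points passed at an adjusted p under 0.05, open points did not, and black lines are medians. Condensin genes lie between -0.20 and -0.98, with no open point, and their medians (-0.78, -0.64 and -0.89) lie above those of the MCM helicase genes (-1.79, -1.20 and -1.97).

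Across the 12 libraries the members varied together, with Pearson r of log2 CPM between 0.910 and 0.998 over their 28 pairs. The 12 points form 4 groups, so r reflects mainly the group means, and no p is given. Among the 10368 genes whose log2 CPM averaged 2 or more, the profiles most like NCAPH were those of NCAPD3 (r = 0.998), TOPBP1, a replication and checkpoint factor (0.997), and NCAPG2 (0.996). NCAPD3 was closest to TYMS, which encodes thymidylate synthase (0.998), and after NCAPH to MCM8 (0.997). NCAPD2, in spite of its smaller fall, followed MCM2 (0.998), MCM4 (0.997) and CDK2 (0.997), which had log2 fold changes of -1.22, -1.25 and -0.80 with YKL-06-102 and of -2.09, -2.18 and -1.48 with palbociclib. NCAPG was closest to the mitotic kinesin KIF2C (0.997), the centromere gene CENPU (0.995) and the clamp-loader gene RFC5 (0.994). NCAPG2 was closest to ESCO2, SPAG5 and BRCA1 (each 0.997), and NCAPH2 to SLBP, the histone stem-loop binding protein, SAAL1 and the DNA ligase LIG1 (each 0.996). The ATPases had other neighbours. SMC2 was closest to the nuclear pore gene NDC1 (0.994), the importin IPO5 (0.992) and SFXN1 (0.992), whose changes were alike with the 3 compounds (-0.37, -0.37 and -0.41 for NDC1 with BSJ-03-123, YKL-06-102 and palbociclib). SMC4 was closest to TOP2A (0.988), PIGW (0.982) and RAD18 (0.982).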

How the data were processed

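RNA was measured in 12 libraries of MV4-11 cells. What the authors deposited are unnormalized counts of reads for each Ensembl gene. The submitters' processing notes name Trimmomatic 0.36, STAR 2.5.2b, HTSeq and the build hg38, and the labels' protocols name a TruSeq Stranded mRNA kit. No source used here gives the annotation release, the HTSeq version or its strand setting. How reads over exons shared by genes on opposite strands were counted is therefore not known. Genes were named, placed and measured in length with GENCODE 29 (GRCh38).

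The 14214 genes that passed filterByExpr (minimum count 10, minimum total count 15) were fitted in 1 model over all 12 libraries with edgeR 4.0.16 in R 4.3.3 (TMM, quasi-likelihood test, 2-sided, 8 residual degrees of freedom, prior count 0.125). Before that, the edgeR fit alone was tried on simulated counts with known changes, for YKL-06-102 against DMSO. The Benjamini-Hochberg adjustment was over all tested genes of each of the 6 comparisons, with calls at 0.05. Each SE is the size of the log2 fold change, before the prior count, over the square root of the F statistic of the quasi-likelihood test. The 95% intervals use this SE and a t quantile. The common biological coefficient of variation was 3.08%. Library totals were 19803323 to 21021137 with BSJ-03-123, 23416204 to 24350966 with YKL-06-102, 20565788 to 24289426 with palbociclib and 18764307 to 25539858 in DMSO.

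The text names all members, genes of the cohesin, SMC5/6, partner and MCM lists with at least the 2 lowest and 2 highest of the first 3 lists against DMSO, and the 3 most similar profiles per member. TRIM59, LCORL and MRPL51 were named later, for sharing exons with members. Members and lists were chosen with earlier results of these data known, so no list was tested. DESeq2 1.42.0, limma 3.58.1, other scalings, no filter, a replicate block, 2-group fits and leaving out each library were the alternatives.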

Additional observations from a re-analysis of the deposited data

How the results depend on the processing

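All 36 called member results kept their direction and call in each of their 13 alternatives. These make 468 of 468 alternative values, and the members share the same fits. Of 156 alternative values for the 12 uncalled member results, 2 were called, both for SMC4 in YKL-06-102 against palbociclib, and no member log2 fold change moved by more than 0.0578. Between BSJ-03-123 and palbociclib the lowest adjusted p of a member was 0.154. The number of all genes called in that comparison was 22, all higher with BSJ-03-123. It was 64 without the filter (22 lower), 75 in the fit of 2 groups only (14 lower) and 43 with DESeq2 (5 lower). With any 1 of the 6 libraries left out it was 3 to 14. The partner list there had 0 called genes, but 1 (MKI67) without the filter, in 2 groups only and with DESeq2. In YKL-06-102 against palbociclib, the SMC5/6 list had 1 called gene, but 2 in 2 groups only and 0 without YKL-06-102 replicate 1 and 2 without YKL-06-102 replicate 3 or palbociclib replicate 2 (a range of 0 to 2 with 1 library left out). The causes were not tested. No clear pairing by replicate number was seen, though 3 libraries per group cannot exclude it. Deviations of same-numbered libraries correlated at -0.163 to 0.227 over 18 pairs, with 2 over 0.1, and in 14 of 36 cases the own number correlated best. Both values over 0.1 were between BSJ-03-123 and DMSO, where each same-numbered pair was the best match (0.087, 0.227 and 0.203). The lowest value, -0.163, was between palbociclib and DMSO. A replicate block called 3991, 5244 and 4687 genes against DMSO for BSJ-03-123, YKL-06-102 and palbociclib, 26 for BSJ-03-123 against palbociclib, 3500 for YKL-06-102 against palbociclib and 2839 for BSJ-03-123 against YKL-06-102, with the same member calls (8, 8, 8, 0, 6 and 6). Every member had at least 1161 reads per library. The small differences between BSJ-03-123 and palbociclib are limited by 3 libraries per group and by the counting noise in them.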
